A study of Mus musculus with 8 samples.

Results

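The macrophages described here were barcodes of the sorted mouse intestinal tissue libraries, chosen by their complement C1q RNA. A barcode was a member when it held at least 500 genes, at most 20% mitochondrial counts and at least 10 unique molecular identifiers (UMIs, each a counted RNA molecule) of C1qa, C1qb and C1qc together. The rule found 352 members among 8944 barcodes that passed the gene and mitochondrial limits. They were 111 of 2756 in the small intestine, 4.03% (95% Clopper-Pearson interval 3.32 to 4.83), and 241 of 6188 in the large intestine, 3.89% (3.43 to 4.41). Of the members, 110 in the small and 139 in the large intestine drew at least 25% of their C1q UMIs from C1qb and C1qc. As a class they carried the other macrophage markers, and they are called macrophages from here on. A further 102 members of the large intestine held almost no C1qb or C1qc and almost none of the other macrophage markers, which goes against the label. They are called C1qa-only barcodes and are described at the end, with 1 small intestinal member that fell under the same line.

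The series measured RNA in 8 mouse libraries. There were 4 droplet single-cell libraries, 1 each of small intestinal tissue, large intestinal tissue, organoids grown alone and organoids in coculture, and 4 Visium libraries, which capture RNA over spots of a tissue section. The tissue libraries came from digested intestine, from which live cells were sorted with enrichment for LGR5+ stem cells and for CD31+ PDPN+ LYVE1+ lymphatic endothelial cells, so a share of barcodes holds for the sort and says little of the whole gut wall. Per the labels, the strain was C57BL/6, and the sorts also used Lgr5-eGFP-ires-CreERT2 mice, a knock-in of a green fluorescent protein and an inducible Cre at the stem cell gene Lgr5, on that background; no treatment of the tissue was listed, and ages and numbers of mice were not given in the sources used here. Each tissue was processed apart as 1 library, so effects of the tissue and of its library cannot be told apart and no test between tissues was possible. All intervals below are exact 95% intervals for counting error only. Where a count was 0, the limit given is instead 3 counts over the number examined.

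C1q is the recognition unit of the classical complement pathway and is built from chains A, B and C, encoded by C1qa, C1qb and C1qc. Tissue macrophages are its main source, and a working molecule needs all 3 chains. In the gut wall most macrophages are replaced from circulating monocytes, while a smaller set around vessels, nerves and muscle is longer lived and carries scavenger receptors such as CD163, FOLR2 and TIM-4. Macrophages clear dying epithelial cells, take up bacteria, present antigen through MHC class II and depend on signalling through CSF1R.

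The C1q genes lie side by side on mouse chromosome 4 (GRCm38, the reference behind mm10). RefSeq places C1qb at chr4:136880126-136886200, C1qc at chr4:136889801-136892936 and C1qa at chr4:136895916-136898844, between Ephb2 and Epha8, with 3600 and 2979 bases between neighbours. The 250 bases before the start used for C1qb and C1qc in the RefSeq promoter table are shown because these are the chains whose RNA appeared together in the macrophages and was near 0 in the C1qa-only barcodes. Both sequences are from RefSeq GRCm38.p6 and read 5′ to 3′ on the minus strand, at chr4:136886201-136886450 and chr4:136892915-136893164. The start used for C1qc lies inside the gene as placed above, so the last 22 bases of its window are within the gene. The capitals mark a match to the core letters GAGGAAG bound by PU.1, the myeloid master regulator encoded by Spi1, searched on both strands.
C1qb: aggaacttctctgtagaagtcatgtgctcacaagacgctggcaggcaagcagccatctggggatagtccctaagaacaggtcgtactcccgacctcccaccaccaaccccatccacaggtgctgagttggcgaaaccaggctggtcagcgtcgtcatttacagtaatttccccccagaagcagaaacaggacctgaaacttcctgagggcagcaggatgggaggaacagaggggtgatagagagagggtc
C1qc: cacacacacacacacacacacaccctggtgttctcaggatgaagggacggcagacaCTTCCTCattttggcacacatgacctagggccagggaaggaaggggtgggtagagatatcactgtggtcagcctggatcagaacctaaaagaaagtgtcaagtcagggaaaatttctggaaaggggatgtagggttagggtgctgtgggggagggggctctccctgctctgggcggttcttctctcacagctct
The match in C1qc was to the reverse complement, CTTCCTC, and no match stood in the C1qb window. Of 32851 promoter windows of this length in the table, 3486 (10.6%) held the motif on either strand.

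The chains were used to choose the members, so their levels are a description. In small intestinal macrophages the summed levels, in counts per 1000000 UMIs (CPM), were 4391 for C1qa, 3414 for C1qb and 2684 for C1qc. In large intestinal macrophages they were 5569, 4829 and 3334 CPM. Other kept barcodes held 3.52, 2.89 and 1.95 CPM in the small intestine and 6.73, 2.37 and 1.28 CPM in the large. C1qa gave 41.9% (40.7 to 43.0) of the C1q UMIs in small and 40.6% (39.8 to 41.3) in large intestinal macrophages. The intervals of the 2 shares overlapped.

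Single barcodes varied widely around these sums. Per macrophage, C1qa ranged from 1 to 116 UMIs with a median of 19 in the small intestine, and from 2 to 122 with a median of 52 in the large. C1qb and C1qc were both found in all 110 small intestinal macrophages, and each in 138 of 139 large intestinal ones. The share of C1q UMIs from C1qb and C1qc together ran from 31.3% to 93.8% (median 56.9%) in the small and from 32.3% to 90.5% (median 60.1%) in the large intestine. In the large intestine no member lay between 10% and 32.3%, so the line at 25% that separates the classes fell in an empty stretch. Lyz2, the macrophage lysozyme, was found in every macrophage, with medians of 20 (range 1 to 750) and 65 UMIs (1 to 369). Csf1r was found in 103 of 110 and 131 of 139, with medians of 5 (0 to 24) and 6 UMIs (0 to 30). The sum over all macrophages was 719432 UMIs in the small and 1282208 in the large intestine, with medians of 5168.5 (1270 to 23301) and 8622 (933 to 49340) per barcode and 2019 and 2546 genes.

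**Figure D1:**
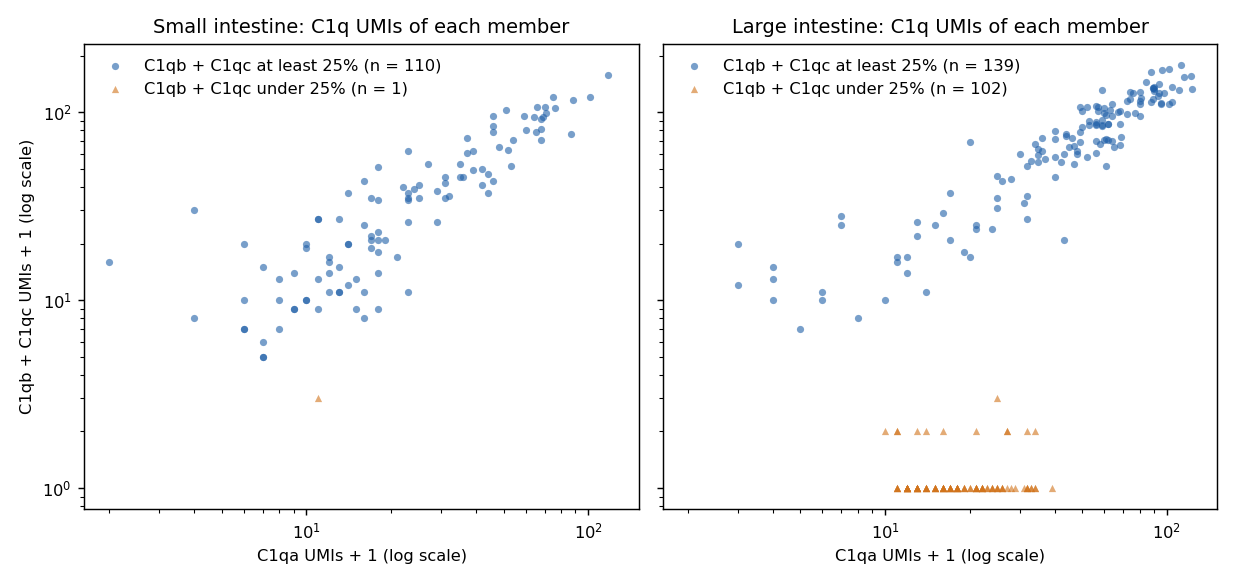
UMIs of C1qa (x axis, UMIs + 1, log scale) against C1qb plus C1qc (y axis, UMIs + 1, log scale) in each member, small intestine on the left and large intestine on the right. The 110 small and 139 large intestinal macrophages (circles) follow the diagonal, while 102 large intestinal members and 1 small intestinal member (triangles) lie along the bottom.

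The threshold cut the 2 tissues differently. Just inside it, at 10 to 12 C1q UMIs, the small intestine had 7 barcodes, 6 of them with at least 25% of C1q UMIs from C1qb and C1qc, and the large intestine had 27, of which 2 reached 25%. Just outside, at 7 to 9 UMIs, the small intestine had 15 barcodes, 13 of them at 25% or more, and the large intestine 36, of which 3 reached 25%. Small intestinal macrophages thus continued below the line, with a median of 1794 UMIs per barcode there, and large intestinal ones hardly did. C1q was listed at 0 UMIs in 2394 of the small and 5141 of the large intestinal kept barcodes. Deposited depth was 78482770 UMIs over 8842 barcodes for the small and 142501907 over 8646 for the large intestine; 5497 and 2060 barcodes were over the mitochondrial limit, and the libraries shared 25 barcode sequences, of which 2 were kept in both and 0 were members of both.

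Against the other kept barcodes of their own library, macrophages stood apart in myeloid receptors, lysosomal enzymes, MHC class II and chemokines. These values follow from choosing the cells and are given with no test. A gene was counted as higher when its log2 ratio of summed CPM was at least 1 and it had more than 3 UMIs in the higher group; in ratios, counts under 3 were set to 3. Of genes with at least 20 UMIs, 19.9% were higher in small and 16.1% in large intestinal macrophages, 15% and 19.4% were lower, and 12.8% (1694 of 13191) were higher in both tissues. The median log2 ratio of all these genes was 0.38 in the small and 0.07 in the large intestine, or -0.02 and -0.38 with genes under 3 UMIs in macrophages at their own count.

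Among genes of macrophage identity, 18 of 18 were higher in each tissue, with median log2 ratios of 6.29 and 7.88. Csf1r, the receptor that macrophages need to survive, stood at 1004 against 2.23 CPM in the small intestine, a log2 ratio of 8.81 (8.53 to 9.11). In the large intestine it stood at 822 against 0.877 CPM, a log2 ratio of 9.87 (9.59 to 10.16). Adgre1, which encodes the F4/80 antigen, was at 293 against 0.586 CPM and at 342 against 0.435 CPM. Cx3cr1, the fractalkine receptor of gut macrophages, was at 409 against 0.965 and at 577 against 0.466 CPM. Cd14, the co-receptor for lipopolysaccharide, was less exclusive in the large intestine, at 315 against 82.9 CPM, than in the small, at 140 against 6.51 CPM.

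The 10 genes that led in both tissues were Clec4n, Ccl12, C3ar1, Fcgr4, Mmp13, Gbp2b, Fcgr1, Ms4a7, Adgre1 and Csf1r. Clec4n, which encodes the fungal lectin receptor dectin-2, had 155 UMIs in small intestinal macrophages against 10 in all other kept barcodes, log2 ratios of 10.15 there and 10.84 in the large intestine. C3ar1, the receptor for the complement fragment C3a, had log2 ratios of 9.81 and 10.53. Mmp13, a collagenase, had 9.14 and 11.30. The 6 Fc receptor genes of the list, which let macrophages take up antibody-coated targets, were 6 of 6 higher in both tissues, with medians of 7.77 and 8.78. Of the pattern recognition genes, 14 of 15 tested were higher in the small and 15 of 16 in the large intestine, among them the nucleic acid sensors Tlr7 (log2 ratios 7.05 and 8.24) and Tlr13 (7.92 and 9.27).

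Complement genes outside the C1q chains did not all follow them. Of 15 tested, 8 were higher and 2 lower in the small intestine, and 9 were higher and 2 lower in the large. C5ar1, the C5a receptor, was at 122 against 0.0946 CPM and at 206 against 0.318 CPM. Cfp, which encodes properdin, had log2 ratios of 6.15 and 6.22. The central component C3 did not pass the 2-fold rule, at 20.9 against 14.98 CPM in the small intestine, a log2 ratio of 0.48 (-0.37 to 1.21), and -0.21 in the large. Factor B, Cfb, was at 58.4 against 55.9 CPM in the small intestine and at 2.34 against 46.1 CPM in the large, where macrophages held 3 UMIs. C1qbp, which shares the C1q name and encodes a mainly mitochondrial protein, was lower in both tissues, with log2 ratios of -1.32 and -1.39.

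All 12 MHC class II and costimulatory genes were higher in both tissues, with median log2 ratios of 4.46 and 4.54. Cd74, the invariant chain, was among the most abundant RNAs of the macrophages, at 19968 CPM in the small and 26344 CPM in the large intestine. H2-Aa, an MHC class II chain, was at 8441 against 222 and at 10768 against 425 CPM. Lysosomal genes were higher in 19 of 22 and 21 of 22, led in level by Ctss (cathepsin S) at 2072 and 2154 CPM. Apoe, the lipid carrier, reached 16352 CPM in the small and 28484 CPM in the large intestine, against 49.0 and 33.4 CPM in other barcodes. Receptors for apoptotic cells were also higher, 13 of 17 and 14 of 17, including Axl (log2 ratios 5.46 and 4.33) and the scavenger receptor Msr1 (8.24 and 9.93).

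Of chemokine ligands, 14 of 17 tested were higher in the small and 14 of 20 in the large intestine. Ccl12, a monocyte attractant, was at 188 and 325 CPM, and Pf4 at 997 and 1287 CPM. The cytokine Il1b stood at 535 against 3.50 CPM and at 1344 against 4.22 CPM. Il10, the cytokine that restrains gut macrophages, was low but still higher than in other barcodes, at 27.8 CPM (20 UMIs) and 20.3 CPM (26 UMIs). Its receptor Il10ra was at 183 and 169 CPM. Il6, Il12a and Marco were listed at 0 UMIs in the macrophages of both tissues, which allows up to 3 UMIs in each sum.

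The series asked, by its title, about lymphatic signals to stem cells, and signals of macrophages to either cell type were therefore listed. Of the listed growth factors, Wnt ligands, R-spondins and prostaglandin enzymes, 7 of 23 tested were higher and 2 lower in the small intestine, and 10 of 25 were higher and 4 lower in the large, beside 19.9% and 16.1% of all genes higher. Wnt4 was at 54.2 against 1.32 CPM and at 24.2 against 3.29 CPM. Ptgs1, a prostaglandin synthase, had log2 ratios of 5.42 and 5.33, and the mesenchymal growth factor Pdgfb 5.10 and 5.52. Igf1 had log2 ratios of 4.23 and 2.52. The lymphatic growth factor Vegfc had 0 UMIs in small and 1 in large intestinal macrophages, and the epidermal growth factor ligand Areg had 0 in both. Rspo3, a stem cell niche factor, had 5 and 2 UMIs.

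Proliferation genes were low, with 8 of 10 tested lower in each tissue and none higher. Mki67 was at 36.1 against 169 CPM in the small and 117 against 208 CPM in the large intestine; the other kept barcodes included the sorted stem cells. Immediate-early and heat shock genes, which cells induce within minutes of stress or stimulation, were higher in 15 of 16 and 16 of 16. Their part in the chemokine and cytokine values was not tested.

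A closer contrast is with the 48 small and 46 large intestinal barcodes that carried at least 3 UMIs of Csf1r, Itgax, Flt3, Cd209a, Xcr1 or Clec9a but too little C1q to be members. Most MHC class II genes were within 2-fold between macrophages and these myeloid barcodes, while most resident and chemokine genes were higher in macrophages. Background shares were 16.5% of genes higher and 7.29% lower in small, and 14.6% and 7.46% in large intestinal macrophages. The 6 genes chose these barcodes, so their values are no finding. Dendritic genes, which include 5 of them, were lower in macrophages for 8 of 11 tested in the small and 9 of 11 in the large intestine. Irf8, a regulator of dendritic cell development, was not among the choosing genes and had log2 ratios of -1.999 and -1.23. Of MHC class II genes, 1 of 12 was higher (Cd40) and 1 lower (H2-DMb2, log2 ratio -2.12) in the small intestine, and only H2-DMb2 was lower, by -1.64, in the large. Of chemokine ligands, 11 of 15 tested were higher and 0 lower in the small, and 9 of 15 were higher and 1 lower in the large intestine.

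Monocyte genes were lower in macrophages, 8 of 10 tested in the small and 5 of 9 in the large intestine. Ly6c2, the marker of classical monocytes, had log2 ratios of -3.28 and -5.02. Ccr2, the receptor that brings monocytes to tissue, was close to the myeloid barcodes' level, at 245 against 321 CPM in the small and 325 against 432 CPM in the large intestine. Resident and perivascular genes were higher in 11 of 13 tested in each tissue. Ms4a7 was at 851 against 10.8 and at 1394 against 7.58 CPM, and Pf4 at 997 against 5.39 and at 1287 against 11.4 CPM. Among genes of most myeloid cells, Spi1 had log2 ratios of -0.49 and -0.08, and Tyrobp 0.17 and 0.65.

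**Figure D2:**
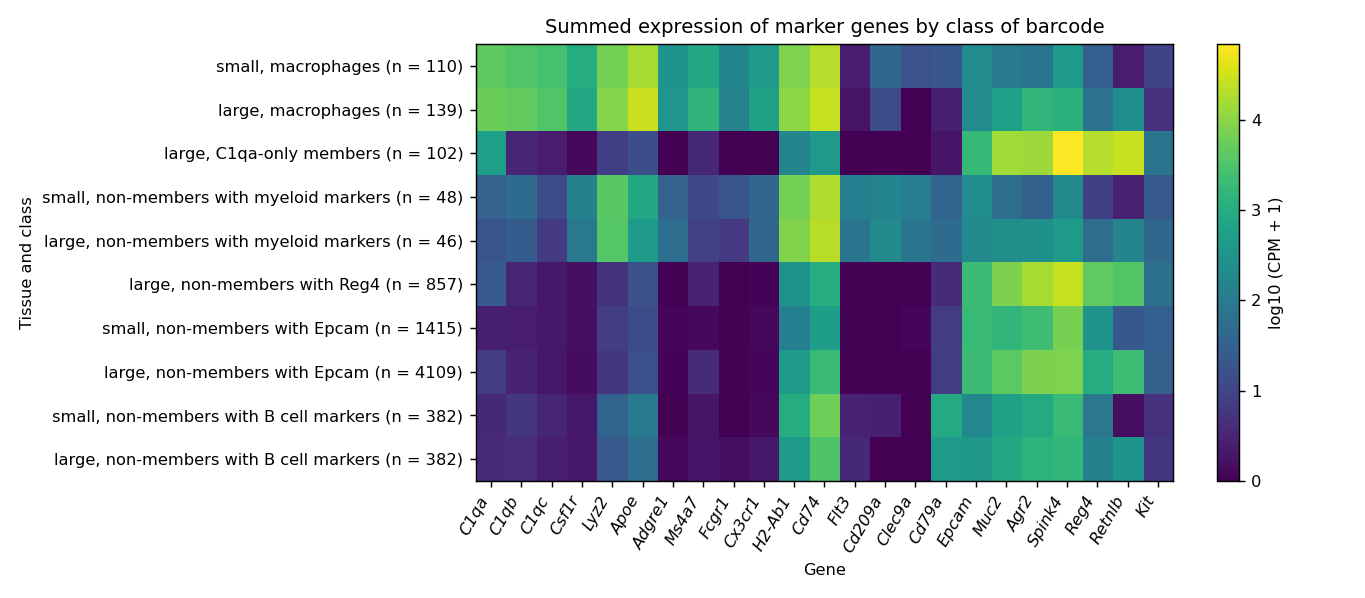
Summed level of marker genes (columns) as log10 of CPM + 1 (colour) in classes of barcodes (labelled with tissue and n). Both macrophage classes share C1q, Csf1r, Lyz2, Apoe and MHC class II, the myeloid non-members carry Flt3 and Clec9a, and the C1qa-only class shares high Epcam, Muc2, Agr2, Spink4 and Reg4 with the Reg4 class, with C1qb, Csf1r and Adgre1 near 0.

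Small and large intestinal macrophages shared their identity genes at similar levels and differed in interferon-induced, immediate-early and a few secreted or matrix genes. Of 7975 genes with at least 20 UMIs over both, 8.1% were at least 2-fold higher in the small and 6.52% in the large intestine, with a median log2 ratio of 0.09. Of 2537 genes that were also macrophage-high in at least 1 tissue, 300 (11.8%) were higher in the small and 142 (5.6%) in the large intestine; with median-of-ratios scaling the split was 174 and 165. Over 14 other settings, which gave 276 values, 3 of the 20 genes named by size went under 2-fold in at least 1 (Gip, Slpi and Rbp4), and each of them had over 98% of its UMIs in 1 barcode. Igfbp5, Ifitm1, Rbp4 and Slpi gave no fold once members with 5 UMIs of B, T or plasma cell markers or of Epcam were removed.

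Of the 18 identity genes, Sirpa was higher in the small intestine (log2 ratio 1.04) and Cd14 in the large (-1.17), and the median was -0.19. Csf1r had a log2 ratio of 0.29 (0.15 to 0.43). None of 17 cytokine receptors and none of 6 Fc receptors passed the 2-fold rule. Of MHC class II and costimulatory genes, the costimulatory Cd40 was higher in the small intestine (1.42) and H2-DMb2 in the large (-1.38), with a median of -0.40 over 12.

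Genes named by size as higher in the small intestine included a protease, a chemokine, a complement component and a lectin. Mmp9, a gelatinase, had 308 UMIs in the small and 57 in the large intestinal macrophages, 428 against 44.5 CPM, a log2 ratio of 3.27 (2.86 to 3.70). It was found in 53 of 110 barcodes against 14 of 139. Cxcl9, an interferon-gamma induced attractant of T cells, had 164 against 7 UMIs, 228 against 5.46 CPM, a log2 ratio of 5.38 (4.31 to 6.72). Those UMIs lay in 33 of 110 barcodes against 4 of 139. C6, a component of the membrane attack complex, had 108 UMIs in 47 barcodes against 6 UMIs in 3, a log2 ratio of 5.004 (3.83 to 6.48). Clec1b, which encodes the podoplanin receptor CLEC-2, had 68 UMIs in 34 barcodes against 2 UMIs in 2, a log2 ratio of 5.34 (4.01 to 8.996).

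Further genes of this set were Pla2g2d, a secreted phospholipase, with a log2 ratio of 4.16 (3.43 to 4.97), Art2b, an ADP-ribosyltransferase, with 3.47 (2.65 to 4.40), and Ddhd1 with 3.11 (2.19 to 4.14). Irf7, the regulator of type I interferon, was at 98.7 against 14.8 CPM, a log2 ratio of 2.74 (1.99 to 3.55). The set also held the gut hormone Gip, with 3131 against 0 UMIs, of which 3118 (99.6%) came from 1 barcode, and Rbp4, with 98.2% of its UMIs in 1 barcode. These 2 describe single barcodes and not the macrophages as a class.

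The 10 genes named as higher in the large intestine were Slpi, Igfbp5, Mmp12, Ifitm1, Nt5dc2, H2-M2, Emp1, Tppp3, Tmem119 and Vim. Mmp12, the macrophage elastase, had 2 UMIs in 2 small and 93 UMIs in 20 large intestinal barcodes, a log2 ratio of -4.12 (-7.77 to -2.81). Vim, an intermediate filament gene, was at 288 against 1586 CPM, a log2 ratio of -2.46 (-2.68 to -2.26), in 46 of 110 against 119 of 139 barcodes. Tmem119, known as a microglial marker, was at 11.1 against 66.3 CPM, a log2 ratio of -2.58, in 7 against 43 barcodes. Nt5dc2 had 1 UMI against 53, in 38 large intestinal barcodes. H2-M2, Emp1 and Tppp3 had log2 ratios of -2.83, -2.82 and -2.66, and Ifitm1 -3.88 with 157 UMIs in 14 barcodes. Slpi, an antiprotease, had 389 UMIs of which 382 (98.2%) came from 1 barcode, and 65.3% of the UMIs of Igfbp5 came from 1.

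Fibroblast RNA was also higher there: the fibroblast markers summed to 37 UMIs (51.4 CPM) in small and 808 UMIs (630 CPM) in large intestinal macrophages, with 5 of 5 markers at least 2-fold higher in the large. Dcn, a fibroblast proteoglycan, had 64.4% of its large intestinal UMIs in 1 barcode. Of matrix genes, Sparc had 4 against 235 UMIs. The part of fibroblast RNA in the values of Sparc, Igfbp5, Fn1 and Vim was not tested.

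Of 12 interferon-induced genes, 8 were at least 2-fold higher in small intestinal macrophages and none in large, with a median log2 ratio of 1.25. Rsad2, which encodes the antiviral protein viperin, was at 55.6 against 8.58 CPM, a log2 ratio of 2.70 (1.71 to 3.81). Isg15, a ubiquitin-like modifier, was at 117 against 57.7 CPM, 1.02 (0.55 to 1.49). Others that passed included Ifit1 (1.83), Ifit2 (1.37), Ifit3 (1.60), Oasl2 (1.52) and Irf7. The 4 that did not pass, Bst2, Ifitm3, Gbp2 and Usp18, had log2 ratios of 0.51, 0.78, 0.83 and 0.92. Markers of T cells, a source of interferon-gamma, summed to 85 UMIs in the small and 0 in the large intestinal macrophages. These UMIs lay in few barcodes: Trbc2 had 23 in 6 barcodes, 12 of them in 1, and Cd3e had 17 in 5. The part of T cell RNA in the interferon values was not tested.

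Immediate-early and heat shock genes were on the other side, with 7 of 16 higher in the large intestine, none in the small, and a median log2 ratio of -0.92. Atf3, a stress-induced transcription factor, was at 227 against 836 CPM, a log2 ratio of -1.88 (-2.13 to -1.64). Hspa1a, an inducible heat shock protein gene, was at 79.2 against 335 CPM, -2.08 (-2.50 to -1.68), and Fos at 1640 against 3375 CPM, -1.04 (-1.14 to -0.95). Zfp36, which degrades cytokine RNA, was the only member with a positive value, 0.33. Of 12 cytokine genes tested, 5 were higher in the large intestine (Il1a, Il1b, Tnf, Tnfsf13 and Osm) and 2 in the small: Il1rn, the interleukin-1 receptor antagonist, with a log2 ratio of 1.01, and Il12b, whose 30 UMIs all lay in 1 barcode. Il1b was at 535 against 1344 CPM, -1.33 (-1.49 to -1.17), and Tnf at 11.1 against 51.5 CPM, -2.21 (-3.48 to -1.15). The neutrophil attractant Cxcl2, 1 of 3 chemokine ligands higher in the large intestine beside 3 higher in the small, was at 158 against 597 CPM, -1.91 (-2.21 to -1.63). The tissues were digested as separate preparations, and a difference in handling cannot be told apart from one in the tissue.

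**Figure D3:**
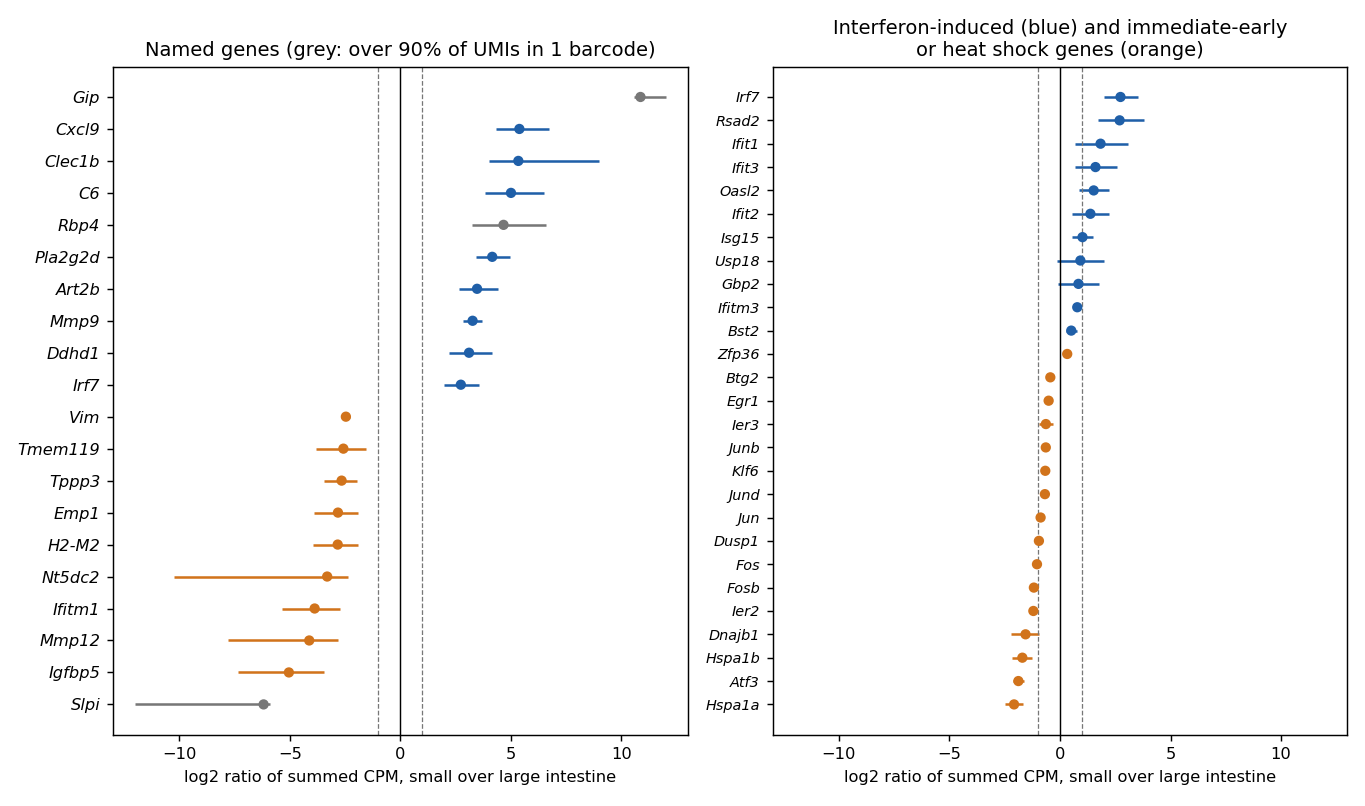
Log2 ratio of summed CPM, small over large intestinal macrophages (x axis), for the 20 genes named by size (left; grey for genes with over 90% of their UMIs in 1 barcode) and for interferon-induced (11 of 12 drawn) and immediate-early or heat shock genes (right); bars are exact 95% counting intervals, clipped at the axis, and dashed lines mark 2-fold. Interferon-induced genes lie on the small intestinal side, with 8 of 12 past 2-fold, and 7 of 16 immediate-early or heat shock genes are past 2-fold on the large intestinal side.

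Of 8 monocyte genes tested, 2 were higher in the small intestine (Plac8, 2.15, and Treml4, 1.83) and 4 in the large (S100a4, -1.11, S100a6, -2.72, Vcan, -1.90, and Fn1, -2.38), with a median log2 ratio of -0.90. Of 12 matrix remodelling genes, Mmp9 and Adamdec1 (1.38) were higher in the small intestine and Mmp12, Plau (-1.30), Fn1 and Sparc in the large. Of 12 lipid genes tested, 3 were higher in the large intestine and 1 in the small, the fatty acid binding protein gene Fabp5, with a log2 ratio of 2.53 and 90 of its 123 small intestinal UMIs in 1 barcode. Trem2, the lipid receptor, was higher in the large intestine at 33.4 against 151 CPM, a log2 ratio of -2.17 (-2.85 to -1.56), in 15 against 83 barcodes, as were Lpl (-1.86) and Lgals3 (-1.31). Of resident genes, Folr2 was at 41.7 against 112 CPM, -1.42 (-2.04 to -0.84), and F13a1 at 61.2 against 168 CPM, while Cd163 (0.49), Mrc1 (0.11) and Lyve1 (0.09) did not pass 2-fold; 88 of the 146 small intestinal Lyve1 UMIs (60.3%) lay in 1 barcode. Of chemokines, Cxcl9, Ccl5 and Ccl24 were higher in the small intestine and Cxcl2, Ccl7 and Ccl9 in the large. Ptgs2, the inducible prostaglandin synthase, was at 54.2 against 8.58 CPM, 2.66 (1.67 to 3.77). Retnla had 96.6% of its small intestinal UMIs in 1 barcode. Proliferation genes were higher in the large intestine for 4 of 8 tested, but 30% of the large intestinal Mki67 UMIs and 34.1% of those of Cdk1 lay in 1 barcode each, and the count ran from 0 to 7 over the other settings.

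RNA of other cells was present in the macrophage barcodes of both tissues. Defa24, a defensin of Paneth cells, was found in all 110 small intestinal macrophages, with 2838 UMIs, and at 0 UMIs in the large intestinal ones, as were the other 3 defensin genes listed. Lyz1, the Paneth cell lysozyme, had 596 UMIs in the small and 434 in the large intestine, where they lay in 26 of 139 barcodes. Lyz2, its near-copy, was found in all 139. In the large intestine Paneth cell markers summed to 338 CPM in macrophages, 9.93 CPM in other kept barcodes and 592 CPM in the myeloid non-members. Whether the large intestinal Lyz1 UMIs came from the macrophages, from other cells or from Lyz2 reads was not tested. Goblet cell markers summed to 541 and 3260 UMIs, but 81.3% of the large intestinal Agr2 UMIs came from 1 barcode. Plasma cell markers summed to 3231 and 5456 UMIs, and 92.3% and 76.5% of Jchain lay in 1 barcode. B cell markers summed to 77 and 35 UMIs and lymphatic markers to 263 and 374. At least 5 Epcam UMIs were found in 5 small and 3 large intestinal macrophages, and at least 5 of B or T cell markers or of Epcam in 12 and 3. With plasma cell markers added, the numbers were 54 of 110 and 93 of 139. Jchain UMIs were found in 51 small and 98 large intestinal macrophages, and in 100 of 102 C1qa-only barcodes. How many of the 54 and 93 were mixed with plasma cells was not tested.

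After each barcode was thinned at random to 2000 UMIs, which left 100 small and 131 large intestinal macrophages (10 and 8 were shallower), the shares with a UMI followed the levels. Mmp9 was found in 36% of small and 4.58% of large intestinal macrophages (48.2% and 10.1% unthinned), and in 0 of 1407 and 0 of 4044 barcodes with Epcam, which allows shares up to 0.213% and 0.0742%. Trem2 was found in 8% and 20.6% (13.6% and 59.7% unthinned), and Atf3 in 30% and 67.9%. Cxcl9 was found in 21% of small intestinal macrophages and in 0.763% of large intestinal ones, the latter under the 1.46% in Epcam barcodes of that library. Before thinning, 4 of the 7 Cxcl9 UMIs of large intestinal macrophages lay in 1 barcode, and their source was not tested. Irf7 was found in 14% of small and 2.29% of large intestinal macrophages, and the second value was also under that of Epcam barcodes, 2.92%. Median depths before thinning were 28814 and 27481 UMIs for the Epcam barcodes.

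Within the macrophages, thinned barcodes were divided by at least 1 UMI of Cd163, Folr2, Timd4 or Vsig4, the scavenger genes of longer-lived macrophages. The shares were alike in the tissues, 23 of 100 (23%, 15.2 to 32.5) and 32 of 131 (24.4%, 17.3 to 32.7). A barcode with no UMI may still express these genes, so both groups are mixtures. Of all genes, 6.81% were higher and 4.82% lower in small, and 5.96% and 6.4% in large intestinal barcodes with such a UMI. Resident genes were higher in 10 of 13 tested in the small and 12 of 13 in the large intestine, a count that the splitting genes themselves enter.

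Genes outside the splitting set differed along with it in both tissues. F13a1, which encodes a coagulation factor subunit, was at 293 against 8.55 CPM in the small and 506 against 74.0 CPM in the large intestine. Cbr2, a carbonyl reductase, had log2 ratios of 4.06 and 3.70, and Pf4 2.09 and 1.82. Mrc1, the mannose receptor, had 1.42 and 1.67, Igf1 2.42 and 2.33, and Dab2, an endocytic adaptor, 1.72 and 1.44. Fcna, a ficolin of the lectin complement pathway, had 8 against 0 UMIs in the small and 60 against 13 UMIs in the large intestine; 6 of the 8 small intestinal UMIs (75%) lay in 1 barcode.

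Ccr2 was the other pole. It was at 41.9 against 292 CPM in the small intestine, a log2 ratio of -2.80, and at 175 against 365 CPM, -1.06, in the large. After thinning it was found in 0 of 23, which allows a share up to 13.04%, against 18 of 77 small intestinal and in 5 of 32 against 30 of 99 large intestinal macrophages. Monocyte genes were lower in 5 of 7 tested in the small and 3 of 7 in the large intestine, and none was higher. MHC class II did not differ by 2-fold for H2-Aa, with log2 ratios of -0.12 and -0.43. Lyve1, the lymphatic and macrophage hyaluronan receptor used in the sort, was found in 5 of 23 against 3 of 77 and in 10 of 32 against 7 of 99.

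Of chemokine ligands, 10 of 15 tested were higher and 2 lower with a scavenger UMI in the small intestine, and 4 of 13 higher and 3 lower in the large. Ccl12 was at 561 against 106 CPM in the small and 300 against 336 CPM in the large intestine. Ccl4 was at 972 against 405 CPM in the small and 42.8 against 389 CPM in the large intestine, log2 ratios of 1.26 and -3.18. The difference between the tissues was not tested. Among the genes named by size in this split, Retnla in the small intestine had 171 of 177 UMIs in 1 barcode, and Gip, Igkc, Jchain, Slpi, Fabp5 and Dpt also rested mostly on 1 barcode each.

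**Figure D4:**
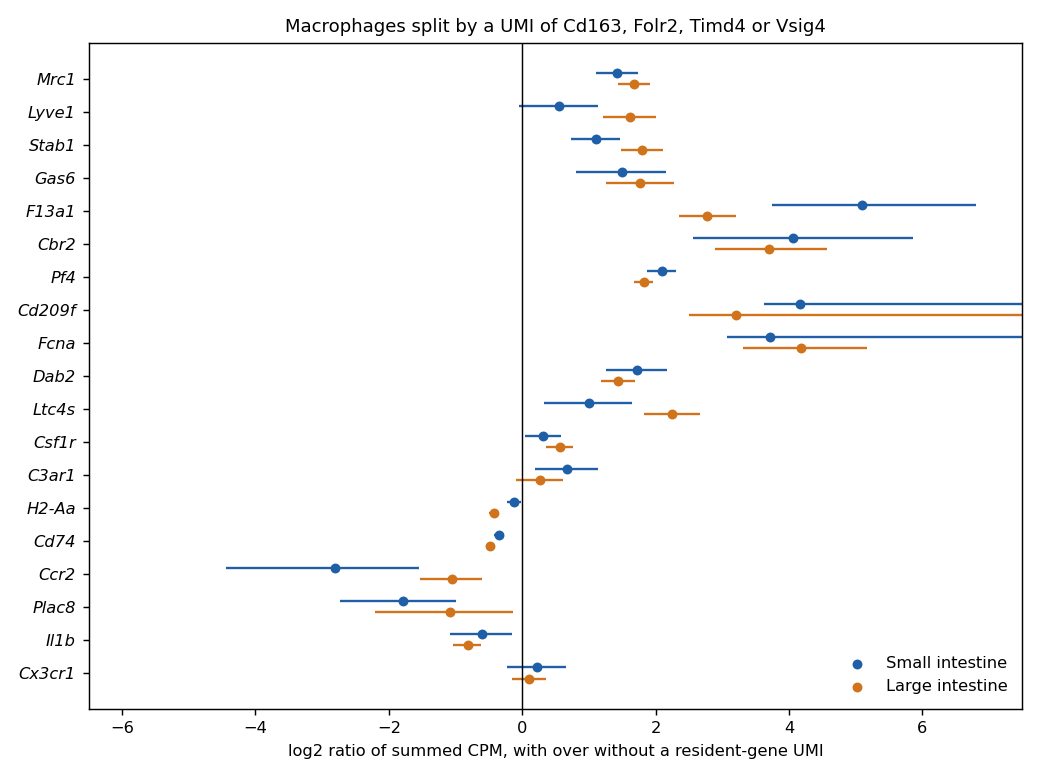
Log2 ratio of summed CPM (x axis) between macrophages with and without a UMI of Cd163, Folr2, Timd4 or Vsig4 after thinning, in small (blue, 23 and 77 barcodes) and large intestine (orange, 32 and 99); bars are exact 95% counting intervals, clipped at the axis. F13a1, Cbr2 and Pf4 lie to the right and Ccr2 to the left in both tissues, while Csf1r and H2-Aa lie near 0.

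The Visium sections, which the rule did not use, gave a second measurement of the same genes in whole tissue. In such sections fewer cells and less RNA per cell cannot be told apart. The 2 sections of a tissue are technical duplicates, so no test between the tissues was possible. Even with sections taken as separate samples, an exact permutation test of 2 against 2 cannot go below p = 0.333. Summed C1q was lower in the small intestine, at 164.6 and 176.8 CPM, than in the large, at 342.1 and 367.2 CPM, a log2 ratio of -1.05. The groups did not overlap, beside 42.5% of all 16839 genes with at least 20 UMIs that were higher in both large intestinal sections and 41.1% that were higher in both small ones. The same held for each chain: C1qa was at 74.6 and 78.1 against 104.6 and 125.0 CPM, and C1qb at 42.5 and 46.6 against 136 and 139 CPM. Csf1r was at 16.9 and 18.4 against 39.9 and 38.3 CPM, a log2 ratio of -1.15. Lyz2 was at 47.6 and 48.6 against 376 and 360 CPM. C1q, Csf1r and Lyz2 RNA was thus more abundant in the large intestinal sections, while the shares of macrophages in the sorted libraries were 3.99% and 2.25% for the small and large intestine.

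Of the 10 genes named as higher in small intestinal macrophages, 8 were higher in both small intestinal sections than in both large ones and 2 were the opposite, beside the 41.1% of all genes. Among the 8 were Gip, with 99.6% of its macrophage UMIs in 1 barcode, Irf7, with a section log2 ratio of 0.32, and Ddhd1. Ddhd1 RNA was also present in control organoids (21.4 CPM) and cocultured organoids (17.8 CPM). Mmp9 was at 7.92 and 8.01 against 0.654 and 0.821 CPM, a log2 ratio of 3.43. C6 was at 5.17 and 5.18 against 0.630 and 0.821 CPM. Clec1b was at 1.11 and 1.03 against 0.0970 and 0.0228 CPM. Cxcl9 went the other way, at 7.02 and 5.32 against 35.05 and 25.2 CPM, as did Rbp4. In the large intestinal cell library, Cxcl9 was higher in other kept barcodes (18.0 CPM) than in macrophages (5.46 CPM).

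Of the 10 genes named as higher in large intestinal macrophages, 5 were higher in both large intestinal sections, 2 were the opposite (Emp1 and Igfbp5) and 3 overlapped (H2-M2, Mmp12 and Tppp3). That share was near the 42.5% of all genes. Tmem119 was at 10.7 and 10.2 against 34.0 and 33.5 CPM. Folr2 was at 0.411 and 0.731 against 7.15 and 7.73 CPM, a log2 ratio of -3.70, on the same side as in the macrophages. Cd163 overlapped, at 1.97 and 2.92 against 2.64 and 2.65 CPM. Non-macrophage cells of the sections can carry any of these RNAs, and their part was not tested.

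**Figure D5:**
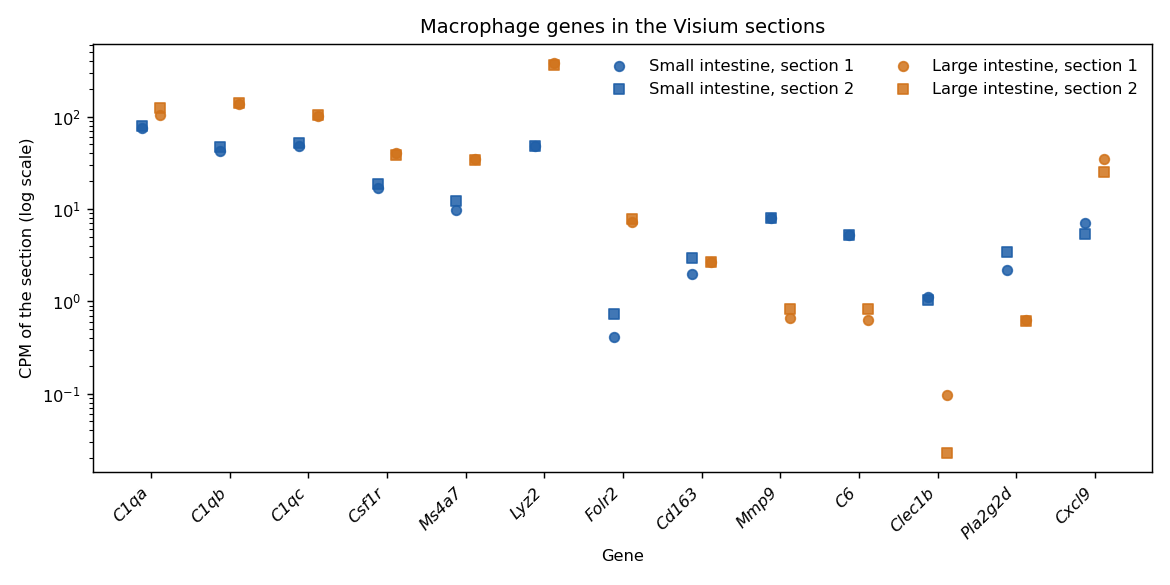
CPM of each whole section (y axis, log scale) for macrophage genes and genes named by the tissue comparison (x axis), in 2 small intestinal (blue) and 2 large intestinal sections (orange). C1q, Csf1r, Ms4a7, Lyz2 and Folr2 lie higher in the large intestinal sections, Mmp9, C6, Clec1b and Pla2g2d in the small intestinal ones, and Cxcl9 in the large intestinal ones.

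The 102 C1qa-only barcodes made up 1.65% (1.35 to 1.997) of the kept large intestinal barcodes and 102 of the 241 members there. They were large-count barcodes with a median of 30793 UMIs (12123 to 111103) and 5099 genes. C1qa stood at 536 CPM (512 to 561; 1859 UMIs), C1qb at 2.31 CPM (8 UMIs) and C1qc at 1.44 CPM (5 UMIs), so C1qa gave 99.3% (98.8 to 99.6) of their C1q UMIs. Whether these UMIs came from C1qa transcripts or from an overlapping RNA was not tested, since the tables hold no reads. Per barcode, C1qa ranged from 9 to 38 with a median of 16.5 UMIs, and C1qb never passed 1. The small intestinal member under the same line had 10, 1 and 1 UMIs of the chains. It was unlike these barcodes, with 1284 UMIs, 2 of Lyz2, 1 of Csf1r, 9 of Apoe and 0 of Epcam, Muc2 and Reg4.

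These barcodes carried an epithelial, secretory programme. All 102 held at least 5 Epcam UMIs (range 15 to 242), at least 81 of Muc2, the gel-forming mucin (median 494.5), and at least 133 of Reg4, a lectin of deep crypt secretory cells (median 630.5). Of macrophage genes, Csf1r had 1 UMI in all 102 together, Adgre1, Fcgr1 and Cx3cr1 had 0, and Lyz2 had 24. Against other kept barcodes, 3.14% of genes were higher and 13.8% lower; 0 of 17 identity genes were higher and 9 were lower, while 3 of 5 goblet genes were higher and 1 lower. The receptor tyrosine kinase Kit, found on mast cells and on deep crypt secretory cells, was at 74.7 against 27.96 CPM in 85 of 102 barcodes, and the mast cell genes Cpa3, Mcpt1, Mcpt2 and Tpsb2 had 0 UMIs.

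The genes that led in the C1qa-only barcodes were Tff2, Reg4, Retnlb, A4gnt, Samd5, Spink4, St3gal1, B3gnt6, Lbh and Gal3st2c. Retnlb, a bactericidal resistin-like protein of goblet cells, was at 27215 against 2009 CPM, a log2 ratio of 3.76. Spink4, a goblet cell protease inhibitor, was at 69592 against 7592 CPM. A4gnt, which caps gastric-type mucin glycans, was at 157 against 12.5 CPM in 97 of 102 barcodes, and B3gnt6, which makes another mucin glycan core, was at 61.7 against 7.90 CPM. Tff2, a trefoil peptide of gastric-type mucous cells, was at 44.99 against 1.94 CPM, with 39.1% of its UMIs in 1 barcode. Zg16, a lectin of surface goblet cells, was lower, with a log2 ratio of -1.29.

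The class was also set against the 857 large intestinal non-members with at least 10 Reg4 UMIs, in which C1qa stood at 23.2 CPM. Of all genes, 3.09% were higher and 5.48% lower. Of 5 goblet genes, 0 were higher and 1 was lower. Retnlb was at 27215 against 3507 CPM and St3gal1 at 36.9 against 3.36 CPM. Chgb and Insl5, which enteroendocrine cells express, were lower with log2 ratios of -6.67 and -6.46, as was Mptx1, a mucosal pentraxin, at 316 against 22934 CPM. The 4 haemoglobin genes led the higher set, with 94% to 98.5% of their UMIs in 1 barcode.

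In large intestinal barcodes that were not macrophages, C1qa was high where Reg4 was highest, with no steady rise below that. It was at 3.81 CPM in 2094 barcodes with no Reg4 UMI, at 2.60 CPM in 2996 with 1 to 9, at 6.10 CPM in 511 with 10 to 99 and at 165 CPM (158 to 171; 2341 UMIs) in 448 with 100 or more. In that last bin 224 of 448 (50%, 45.3 to 54.7) held C1qa and 24 (5.36%, 3.46 to 7.87) held C1qb. That bin held all 102 C1qa-only barcodes, which were chosen for their C1q. Without them C1qa was at 44.8 CPM (40.9 to 49.0; 482 UMIs) in 346 barcodes, none of which could hold 10 C1q UMIs, and 122 (35.3%, 30.2 to 40.5) held C1qa. In the small intestine, 52 barcodes with at least 100 Reg4 UMIs held 2.77 CPM of C1qa (13 UMIs).

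In the Visium sections the C1qa share of C1q did not move with Reg4. In the large intestine it was 29.6% in 223 spots with at least 10 Reg4 UMIs and 30.7% in 1873 other spots of section 1, and 34.0% and 34.1% in section 2. A spot holds several cells, and the C1qa signal there includes that of macrophages.

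The counts of the tissue comparison depended on whether the C1qa-only barcodes were kept. With all members, 1658 of 2679 macrophage-high genes (61.9%) were higher in the small and 110 (4.11%) in the large intestine, against 300 and 142 without the members under 25%. The number of genes higher than in other barcodes in both tissues was 1249 of 13192 (9.47%) with counts under 3 set to 3, and 934 (7.08%) when more than 3 UMIs were required. Of all genes tested, 20.4% were higher and 17.6% lower in small than in large intestinal members, and 9.09% were higher and 10.1% lower in large intestinal members than in other barcodes. The large intestinal share was 3.89% with and 2.25% (1.89 to 2.65) without them, and the small intestinal share 4.03% and 3.99% (3.29 to 4.79).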

How the data were processed

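RNA was counted in 4 single-cell and 4 Visium libraries. The deposited tables hold counts of UMIs per gene and barcode with no normalization, made by the authors with Cell Ranger 6.0.1 (single cells) and Space Ranger 1.2.1 (Visium) on mm10, per the file headers and the submitters' processing notes. They list 32287 features in the tissue libraries, of which 32158 matched a table of mouse gene names; 0 columns of values were left unused. The members, the 22 gene lists and the 16 lists of other cells were chosen with earlier results of these data known.

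Barcodes under 500 genes or over 20% mitochondrial UMIs were dropped, and those of the rest with at least 10 C1q UMIs were members. No doublet caller was applied for the reported values; removing the highest Scrublet scores, at 0.8% per 1000 barcodes, was an alternative. Members with C1qb and C1qc at 25% or more of C1q UMIs were described as macrophages, a division made after the data were seen. UMIs were summed per class and given as CPM. Ratios were log2 ratios of CPM with counts under 3 set to 3 and exact 95% intervals for a ratio of Poisson counts; shares have Clopper-Pearson intervals. UMIs of 1 library stem from 1 preparation, so intervals cover counting error only.

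Genes needed 20 UMIs over the groups compared. The rule for named genes took the 10 with the highest lower log2 ratio of the 2 tissues (100 UMIs in each), the 10 highest and 10 lowest between tissues (50 UMIs in the higher tissue and 2-fold higher than in its other barcodes), and the 5 highest and lowest in the split by scavenger genes; C1q, mitochondrial, ribosomal protein, sex-linked, GFP, predicted and immunoglobulin variable genes were left out. For the C1qa-only barcodes the 10 highest and lowest (100 UMIs) were named, a rule added after the data were seen, as was the need for more than 3 UMIs in the higher group. With 1 library per tissue no test was made. Alternatives changed the member rule, the filters, the scaling and the treatment of mixed barcodes. The ratio and interval functions were tested on simulated data. Python 3.11.15, NumPy 2.4.6, SciPy 1.17.1, pandas 2.3.3, Scanpy 1.11.5 and Matplotlib 3.10.9 were used. Sequences are from RefSeq GRCm38.p6; C1qa had no entry among the promoters. Some genes of the lists are not reported here.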

Additional observations from a re-analysis of the deposited data

Results flagged for a closer look

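In 5 listed genes, macrophages stood on opposite sides of the other kept barcodes in the 2 tissues, past 2-fold each way; the difference between the tissues was not tested. Cxcl9, the T cell attractant, had a log2 ratio of 7.63 in the small and -1.72 in the large intestine. Ccl5, another T cell attractant, had 2.09 and -1.12, on 35 UMIs in 9 small and 7 UMIs in 5 large intestinal macrophages. Of the 35 UMIs, 13 lay in 1 barcode. The Paneth cell lysozyme Lyz1 had -3.28 in the small intestine, whose other barcodes hold Paneth cells at 8032 CPM of Lyz1, and 5.1 in the large, where they hold 9.88 CPM. The large intestinal Lyz1 value rested on 26 of 139 macrophages, and its source was not tested. The haemoglobin genes Hba-a1 and Hbb-bt had 1.3 and -1.28, and 2.02 and -1.81, on 5 to 10 UMIs in the macrophages of either tissue.

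The cocultured organoid library, which was not used in any comparison, held 6 UMIs of C1q among 100452728 (0.0597 CPM, 0.0219 to 0.130), against 0 among 46236011 in the control organoids, which allows up to 0.0649 CPM; at these depths no difference was detectable. The gene and mitochondrial limits removed 7 barcodes with at least 10 C1q UMIs in the small and 7 in the large intestine.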

How the results depend on the processing

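Depth limits genes under 3 UMIs in a class, and single barcodes limit the rest: 1 library per tissue leaves spread between mice unmeasured. No paired analysis was possible because each tissue has 1 single-cell library and the section numbers of the 2 tissues mark technical duplicates, not shared animals. Results were called kept within counting error for shares, within 1.5 times for counts, and by sign alone for the section ratio. By these rules they kept their value in 175 of the checks of shares, counts and sections and moved in 27. Of the checks of single named genes, 481 kept their value, 105 moved and 6 changed sign. The cause of each move was not tested, except that other gene filters change the number of genes tested.

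The large intestinal share of 3.89% became 4.945% at 5 C1q UMIs, 2.731% at 20, 2.327% at 0.2% of UMIs, 3.426% without the mitochondrial limit and, chosen after seeing the data, 2.246% for members with C1qb and C1qc at 25% or more of C1q UMIs (the 25% rule). The small intestinal share became 2.22% without the mitochondrial limit. For all members, the 1249 genes higher in both tissues became 2831 with the 0.2% rule, 4423 without members holding 5 UMIs of B, T or plasma cell markers or Epcam, 2698 with a filter of 3 UMIs and 2934 without members holding B, T or Epcam UMIs (chosen after seeing the data). The 1658 higher in the small intestine became 326, 221, 3005 and 353 in the same order, 601 with the mean of the CPM of each barcode and 300 with the 25% rule. The 110 higher in the large became 46 at 20 C1q UMIs and 166 without B, T or Epcam members, and 12 of 20 named genes were left without B, T, plasma or Epcam members.

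For macrophages by the 25% rule, all alternatives were chosen after seeing the data. The 300 genes higher in the small intestine became 196 (mean CPM), 174 (median-of-ratios), 129 (filter of 50 UMIs) and 580 (3 UMIs), and the 142 in the large became 87 (50 UMIs). The 4 proliferation genes became 7 at 5 C1q UMIs, 0 without B, T, plasma or Epcam members and 2 with mean CPM. Sct, lower in the small intestine over all members, had a log2 ratio of 1.54 with the 0.2% rule, 1.3 without B, T or Epcam members and 1.25 with the 25% rule; without B, T or Epcam members Gcnt3 had 0.08, Cgref1 0.34 and, with the 25% rule, Slpi 0.08. The section ratio of C1q ranged from -1.11 to -1 with each section left out.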
